A study of Rattus norvegicus with 8 samples.

Results

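The endothelial and smooth-muscle microRNAs (miRNAs) miR-126a, miR-143, miR-145, miR-221 and miR-222 were examined in the rat striatum, a forebrain region of reward and movement. They were taken by name as the 5p and 3p arms of these 5 precursors, which gave 10 of the 752 mature miRNAs counted, and all 10 were present. Small RNA had been sequenced from 4 rats that self-administered saline and 4 that self-administered methamphetamine (METH), with 1 library per rat. All were wild-type male Sprague-Dawley rats with a jugular catheter, trained to press a lever for food before saline or METH was offered in daily sessions. Their age is not given in the sources used here. Rats entered surgery only if they had learned the food task. More rats had self-administered METH than saline. In both groups, 4 rats with stable lever pressing at the end were picked for blood sampling, a smaller share of the METH rats than of the saline rats. Whether these are the sequenced rats is not stated. The question was whether these miRNAs differ after METH self-administration.

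A precursor hairpin is cut into a 5p and a 3p strand, and usually the strand loaded into the silencing complex accumulates while its partner is lost. A miRNA recognises its targets mainly through its seed, bases 2 to 8. miR-126 is carried within Egfl7, a gene of endothelial cells, and supports the response of these cells to vascular growth factor. miR-143 and miR-145 are made as a pair and keep vascular smooth muscle in its contractile state. miR-221 and miR-222, also made as a pair, restrain the growth factor receptor Kit and the cell cycle inhibitor Cdkn1b. All are also made outside vessels, so a bulk sample does not show which cell each read came from.

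The mature sequences are shown because the arms are compared below and because miR-221-3p and miR-222-3p can be told apart only beyond their seed. They are from RefSeq on the assembly GRCr8, whereas the reads had been aligned to rn6. All 10 members matched 1 entry each. The seed is in capitals.

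rno-miR-126a-3p (chr3:29813219-29813240, plus strand): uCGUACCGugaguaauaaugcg

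rno-miR-126a-5p (chr3:29813182-29813202, plus strand): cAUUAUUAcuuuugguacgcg

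rno-miR-143-3p (chr18:57371373-57371394, minus strand): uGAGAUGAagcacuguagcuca

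rno-miR-143-5p (chr18:57371408-57371428, minus strand): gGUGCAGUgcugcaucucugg

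rno-miR-145-5p (chr18:57370033-57370055, minus strand): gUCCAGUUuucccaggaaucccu

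rno-miR-145-3p (chr18:57369997-57370017, minus strand): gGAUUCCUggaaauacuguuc

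rno-miR-221-3p (chrX:6023246-6023268, plus strand): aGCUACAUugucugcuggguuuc

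rno-miR-221-5p (chrX:6023206-6023228, plus strand): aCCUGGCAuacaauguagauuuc

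rno-miR-222-3p (chrX:6022682-6022702, plus strand): aGCUACAUcuggcuacugggu

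rno-miR-222-5p (chrX:6022642-6022662, plus strand): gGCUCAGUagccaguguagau

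On GRCr8, the miR-126a hairpin lies on the plus strand within the span of Egfl7, under the RefSeq symbol Mir126b, and those of miR-143 and miR-145 lie within the long non-coding RNA gene Carmn. The seed GCUACAU was shared by miR-221-3p and miR-222-3p and, among the 685 miRNAs of the table with a RefSeq sequence, by no other. These 2 strands were identical over their first 8 bases and matched at 11 of 21 positions when aligned without gaps. Each of the other 8 members had a seed of its own among these miRNAs. RefSeq gives the symbol Mir126a to the minus-strand hairpin whose mature strand is named miR-126b, and names here follow the mature strands. miR-126b overlaps miR-126a-5p by 17 bases, had 1 count in each saline rat and 0 in each METH rat, so it was not tested.

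Library totals ranged from 12929302 to 27632443 counts. Low-count removal left 507 miRNAs, among them 9 of the 10 members; miR-143-5p was not tested. METH rat 4 stood apart on the first principal component, which held 42.0% of the variance, at -21.5 against -2.83 to 7.29 in the other 7 libraries. It had the highest or lowest level of the 8 libraries for 65.1% of the 507 miRNAs. For the members, it was highest for 5 and lowest for 4 of the 10. Values without this rat are given beside many of the results. Nothing in the sources used here says that rats were processed in batches.

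Together the 10 members took 1.65 ± 0.090% of all counts in the saline group and 1.73 ± 0.135% in the METH group (SD, n = 4). Levels are given in CPM, reads scaled to a common depth by trimmed mean of M-values (TMM) factors. Mature miRNAs have nearly the same length, so CPM can be set side by side, although ligation efficiency differs between sequences and was not measured. miR-126a-3p was the most abundant member and ranked 23 of 752, at a mean of 8520 CPM over the 8 libraries. It was followed by miR-222-3p at 4649 CPM, miR-143-3p at 2468 CPM and miR-221-3p at 955 CPM. Next came miR-126a-5p at 304 CPM, miR-145-5p at 54.8 CPM, miR-221-5p at 33.3 CPM and miR-145-3p at 17.4 CPM. The rarest were miR-222-5p at 1.97 CPM and miR-143-5p at 0.331 CPM. Each neighbour in this order was higher than the next in 8 of 8 libraries.

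**Figure D1:**
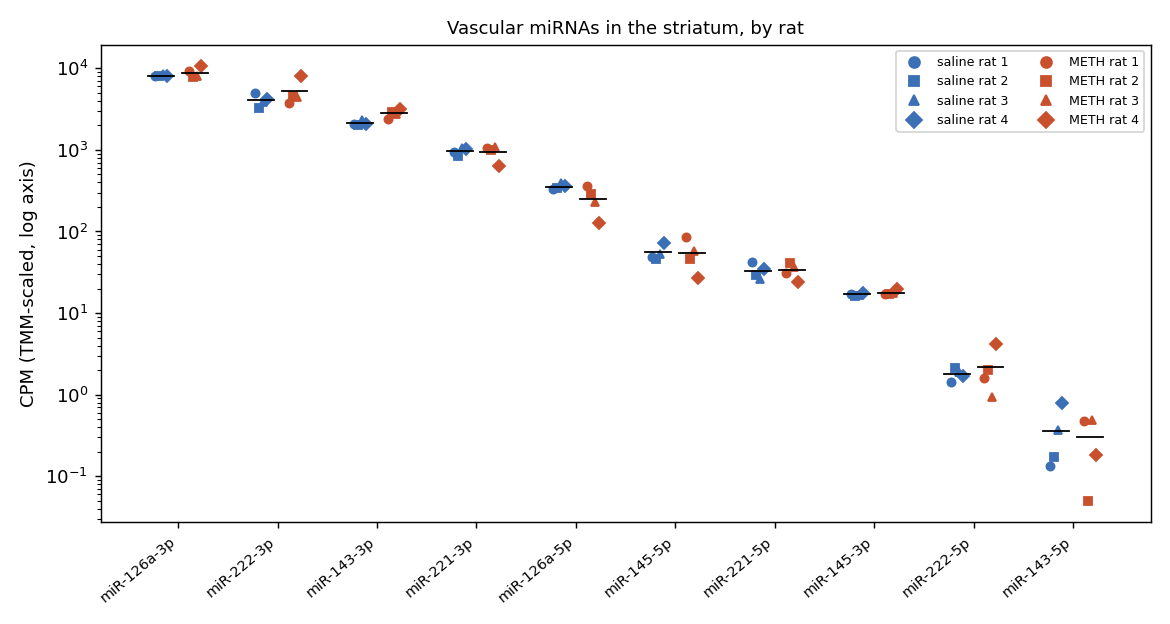
CPM of each member in each rat on a log axis, with members ordered by mean level, saline in blue, METH in red and a black line at each group mean. Most groups lie on top of each other, and METH rat 4 (red diamond) is highest of the 8 libraries for 5 members and lowest for 4.

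In the METH group against the saline group, 0 of the 9 tested members reached 0.05 after adjustment (edgeR, quasi-likelihood), and 0 had an unadjusted p under 0.05. The background was 0% of 507 miRNAs called (0 of 507), with 28 at an unadjusted p under 0.05; the DESeq2 test called 8 miRNAs and the edgeR exact test 6, none of them a member. Adjusted p-values of the members ranged from 0.818 to 0.989. Fitted log2 fold changes were positive for 6 and negative for 3, with a median of 0.068 against -0.023 over all tested miRNAs. This tally changed with the scaling, as members near 0 reversed (given in the section on processing). In a bulk sample, fewer vascular cells and less miRNA per cell cannot be told apart. Labels name separate rats, so these p-values measure the spread between animals.

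miR-143-3p, the smooth-muscle strand of miR-143, came closest to the threshold. It was at 2070, 2047, 2329 and 2102 CPM in saline rats 1 to 4 and at 2418, 2906, 2730 and 3139 CPM in METH rats 1 to 4. All 4 METH rats were thus above every saline rat, although the gap between the highest saline rat and the lowest METH rat was narrow. The means were 2137 ± 130 and 2798 ± 304 CPM (SD, n = 4), a ratio of 1.31. The log2 fold change was 0.39 ± 0.18 (SE), and edgeR gave a p of 0.0553 before and 0.818 after adjustment. The unadjusted p was 0.029 in DESeq2 (0.554 after adjustment) and 0.0445 in edgeR without METH rat 1 (0.457 after adjustment), and it ranged from 0.0445 to 0.154 with 1 library left out. It was 0.181 with library totals, 0.157 with the replicate number as a block and 0.102 in the edgeR exact test. Groups that did not overlap were found for 3.16% of the 507 miRNAs, and for 1.78% with METH higher. Among the 9 tested members, miR-143-3p was the 1 such miRNA. Its exact permutation p was 0.0286 without adjustment, a value that cannot be lower with 4 rats per group. Scaled by library totals instead, the groups also did not overlap, at 2062 to 2359 CPM in the saline rats and 2404 to 2942 CPM in the METH rats, while the fitted log2 fold change was smaller, at 0.26. Without METH rat 4 the METH mean was 2685 CPM.

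miR-145-5p, the partner of miR-143 in smooth muscle, showed no fitted change of that size. It was at 48.3, 46.2, 53.7 and 73.2 CPM in saline rats 1 to 4 and at 86.3, 46.2, 58.0 and 26.8 CPM in METH rats 1 to 4. The METH rats ran past the saline range at both ends. Its log2 fold change was -0.03 ± 0.35 (SE), and the adjusted p was 0.985 in edgeR. The fitted value turned to 0.20 without METH rat 4. The other arm, miR-145-3p, was among the steadiest miRNAs, at 17.3, 16.1, 16.7 and 17.9 CPM in the saline rats and 17.2, 17.1, 17.5 and 19.5 CPM in the METH rats. Its coefficient of variation (SD over mean) was 4.37% in the saline group, rank 14 from the lowest of 507, and 6.15% in the METH group, rank 7. The METH value without METH rat 4 was 1.2%, below that of the saline group. Its log2 fold change was 0.07 ± 0.21 (SE), or 0.028 without METH rat 4. miR-143-5p, the strand of miR-143 that is normally lost, had 3, 4, 10 and 20 counts in saline rats 1 to 4 and 7, 1, 12 and 3 counts in METH rats 1 to 4, too few to compare.

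miR-126a-3p, the endothelial strand, was at 8105, 8094, 8426 and 8003 CPM in saline rats 1 to 4. In METH rats 1 to 4 it was at 9216, 7773, 7974 and 10572 CPM. The saline rats lay within a narrow range, with a coefficient of variation of 2.27%, rank 4 from the lowest of 507, where the median of all tested miRNAs was 22.3%. The METH rats lay on both sides of that range, at 14.6%, or 9.40% without METH rat 4. In the METH group the rank was 47 from the lowest of 507, and the median of all tested miRNAs was 36.4%. The log2 fold change was 0.12 ± 0.19 (SE), adjusted p = 0.939 in edgeR. Without METH rat 4 the ratio of means was 1.02 in place of 1.09.

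miR-126a-5p, cut from the same hairpin, was at 331, 346, 389 and 358 CPM in saline rats 1 to 4. In METH rats 1 to 4 it was at 362, 291, 232 and 128 CPM. METH rat 1 lay within the saline range and the other 3 METH rats below it. The means were 356 ± 24.8 and 253 ± 99.1 CPM (SD, n = 4), a ratio of 0.711. Without METH rat 4 the METH mean was 295 CPM. The log2 fold change was -0.49 ± 0.30 (SE), adjusted p = 0.818 in edgeR.

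miR-222-3p was at 4949, 3278, 3857 and 4265 CPM in saline rats 1 to 4 and at 3808, 4570, 4504 and 7959 CPM in METH rats 1 to 4. METH rat 4 was far above the other 7 rats, whose levels were mixed between the groups. The log2 fold change was 0.35 ± 0.27 (SE), adjusted p = 0.818 in edgeR, and the ratio of means was 1.27, or 1.05 without METH rat 4. miR-221-3p, which has the same seed, was at 950, 839, 1061 and 1018 CPM in the saline rats. In METH rats 1 to 4 it was at 1062, 997, 1071 and 642 CPM, so METH rat 4 was the lowest of all 8. Its log2 fold change was -0.04 ± 0.22 (SE), adjusted p = 0.985 in edgeR, and without METH rat 4 it turned to 0.11. The strands normally lost did not separate the groups either. miR-221-5p ranged from 26.3 to 42.4 CPM in the saline group and from 24.0 to 41.5 CPM in the METH group. miR-222-5p had 32, 49, 52 and 43 counts in saline rats 1 to 4 and 23, 40, 23 and 69 counts in METH rats 1 to 4. Its log2 fold change was 0.27 ± 0.43 (SE), and -0.23 without METH rat 4.

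**Figure D2:**
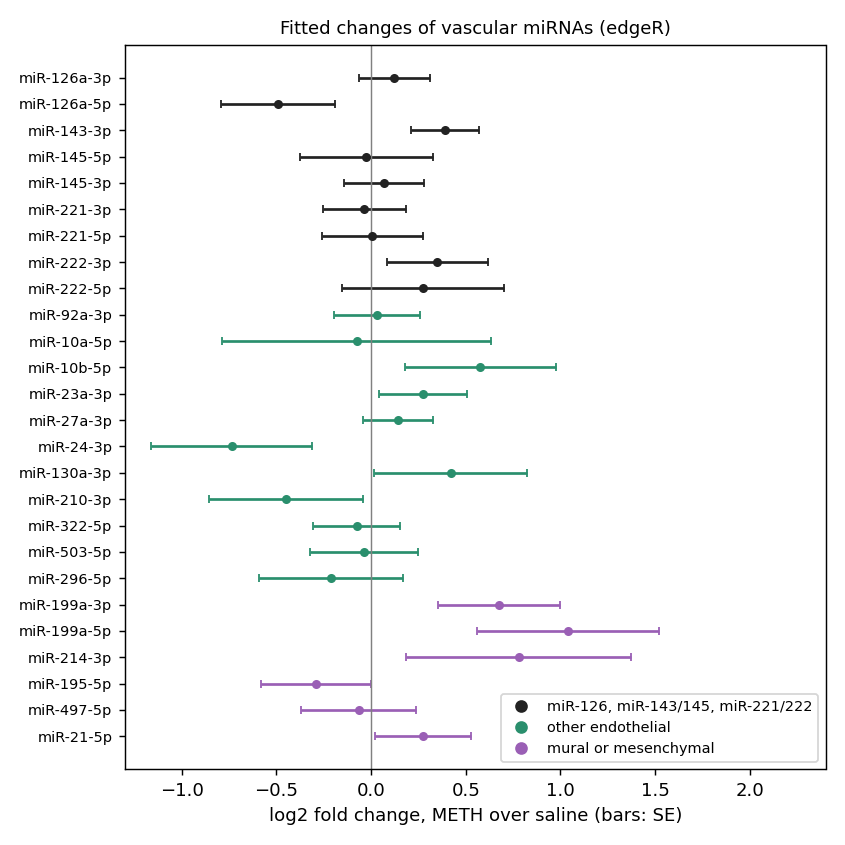
Fitted log2 fold change of METH over saline with its SE for the 9 tested members (black), 11 other endothelial miRNAs (green) and 6 mural or mesenchymal miRNAs (purple). None passed the adjusted threshold; miR-143-3p stood at 0.39 and miR-126a-5p at -0.49.

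The ratio of the arms of a hairpin is formed within a library, so it does not depend on library scaling. It was compared over the 174 precursors with both arms tested, which include miR-126a, miR-145, miR-221 and miR-222, using limma on log2 of the 5p count over the 3p count. Precursors with an adjusted p under 0.05 numbered 0 of 174 (0%), and 5 had an unadjusted p under 0.05. In miR-126a, the 3p arm outnumbered the 5p arm 24.5, 23.4, 21.7 and 22.4 times in saline rats 1 to 4. In METH rats 1 to 4 it did so 25.5, 26.7, 34.4 and 82.9 times. The saline rats were close together, and all 4 METH rats lay above them, METH rat 1 only just. The log2 ratio of 5p over 3p was -4.52 ± 0.08 in the saline group and -5.22 ± 0.79 in the METH group (SD, n = 4). The difference was -0.70 ± 0.40 (SE, limma), with an unadjusted p of 0.107 and an adjusted p of 0.926.

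The groups did not overlap for 4 of the 174 precursors (2.30%), and miR-126a was the 1 with a lower 5p to 3p ratio in METH (0.575%). The exact permutation p was 0.0286, the smallest it can be, and 0.914 after adjustment over all precursors and the partner ratios below. Without METH rat 4 the difference was -0.32. In METH rat 4 the rarer arm was low in many precursors: over the 170 precursors outside the members, the median log2 ratio of the rarer to the more abundant arm was -4.44, against -3.87 to -3.63 in the other 7 libraries. For miR-126a this ratio in METH rat 4 was 1.72 below the mean of the other rats, and 27 of the 170 precursors were at least as far below. The part of this in the miR-126a difference was not tested.

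The other precursors did not separate the groups. The 5p arm of miR-145 outnumbered its 3p arm 2.79, 2.86, 3.21 and 4.10 times in saline rats 1 to 4 and 5.01, 2.7, 3.31 and 1.38 times in METH rats 1 to 4. miR-145 was the 1 precursor among these 5 in which the 5p arm prevailed. The 3p arm of miR-221 exceeded its 5p arm 22.4 to 40.3 times in the saline rats and 24.1 to 34.4 times in the METH rats. For miR-222 the range was 1559 to 3450 in the saline rats and 1921 to 4854 in the METH rats, so the balance between the arms was far more uneven for miR-222 than for miR-221. The log2 differences were -0.19 ± 0.42 for miR-145, 0.06 ± 0.30 for miR-221 and -0.21 ± 0.39 for miR-222 (SE, limma). The miR-145 difference turned to 0.15 without METH rat 4, while those of miR-221 and miR-222 were then 0.034 and -0.37. For miR-143, 60 counts of the 5p arm stood against 424406 of the 3p arm over all libraries.

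**Figure D3:**
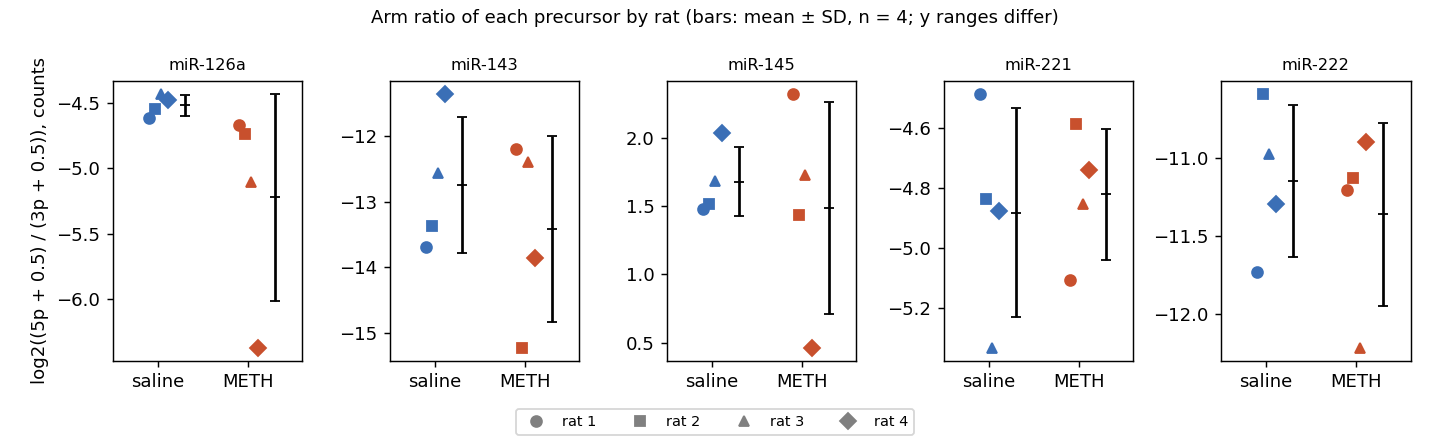
Log2 ratio of the 5p to the 3p count in each rat for the 5 precursors, with black bars for the mean ± SD (n = 4) and a separate y range for each panel. The METH rats of miR-126a lie below every saline rat, with METH rat 4 lowest at -6.37, while the groups overlap for the others.

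The members made in pairs were then compared within each library. miR-222-3p exceeded miR-221-3p 5.21, 3.90, 3.64 and 4.19 times in saline rats 1 to 4 and 3.59, 4.58, 4.20 and 12.4 times in METH rats 1 to 4. The 7 rats other than METH rat 4 thus held a ratio of about the same size. The log2 difference between the groups was 0.37, with an exact permutation p of 0.571, and it was -0.03 without METH rat 4. miR-143-3p exceeded miR-145-5p 42.8, 44.3, 43.4 and 28.7 times in saline rats 1 to 4 and 28.0, 62.9, 47.1 and 117 times in METH rats 1 to 4. The METH rats held both the lowest and the highest ratio. The log2 difference was 0.51, with an exact permutation p of 0.314, or 0.15 without METH rat 4. Without METH rat 1, the METH rats were all above the saline rats, at a log2 difference of 0.84 and an exact permutation p of 0.0286. Both pairs had a p of 0.953 after adjustment over these ratios and the arm ratios.

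**Figure D4:**
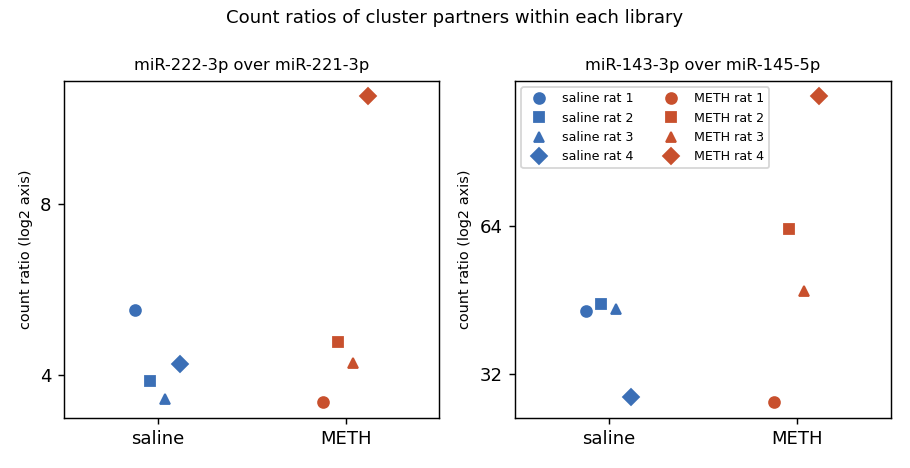
Count ratio of miR-222-3p to miR-221-3p and of miR-143-3p to miR-145-5p in each library on a log2 axis. METH rat 4 is highest in both panels, at 12.4 and 117.

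The other miRNAs linked to vessels were read from a list. Of 14 linked to endothelial cells, 12 were in the table and 11 were tested, of which 0 passed the adjusted threshold in edgeR, with 5 fitted higher and 6 lower and a median log2 fold change of -0.04. All 6 linked to mural or mesenchymal cells were tested and 0 passed, with 4 fitted higher and 2 lower and a median of 0.47. Adjusted p-values ranged from 0.818 to 0.985 over both sets. The mural set's largest fitted changes were 1.04 ± 0.48 for miR-199a-5p, 0.78 ± 0.60 for miR-214-3p and 0.67 ± 0.32 for miR-199a-3p (SE). These miRNAs are found in mesenchymal cells. miR-199a-5p and miR-199a-3p are arms of the same precursor, so they are not separate signals. miR-199a-5p and miR-214-3p were rare, at average levels of 0.501 and 1.09 log2 CPM. The other fitted values were 0.27 ± 0.25 for miR-21-5p, -0.29 ± 0.29 for miR-195-5p and -0.07 ± 0.31 for miR-497-5p (SE). miR-199a-3p was at 60.6 to 103 CPM in the saline rats and 74.9 to 182 CPM in the METH rats. In the endothelial set, miR-24-3p had the largest fitted change, -0.74 ± 0.43 (SE). The groups overlapped for all 17 tested miRNAs of these sets.

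Markers of other cells were summed by list beside these values. In METH rat 4, 3 erythrocyte miRNAs reached 2817 CPM against 342 to 648 CPM in the other 7 rats, and 5 choroid plexus miRNAs 7132 CPM against 2804 to 3580 CPM. Leukocyte and platelet miRNAs, 4 of 4 present, were at 688 CPM in METH rat 4, 1076 to 2094 CPM in the saline rats and 1243 to 2063 CPM in the other METH rats. The 4 muscle miRNAs were at 50.1 to 70.1 CPM in the saline rats and 47.3 to 115 CPM in the METH rats, the highest in METH rat 4. The erythrocyte, choroid plexus, leukocyte and muscle sums rested mainly on miR-451-5p, miR-204-5p, miR-150-5p and miR-206-3p. Their average levels were 9.65, 11.7, 10.4 and 5.71 log2 CPM, so the sums do not show several miRNAs changing together. In the leukocyte list, log2 fold changes were 0.97 for miR-223-3p, -0.92 for miR-142-3p, -0.09 for miR-142-5p and -0.03 for miR-150-5p. The 8 epithelial miRNAs were at 26.7 to 62.8 CPM in the saline rats and 104 to 2350 CPM in the METH rats. The miRNAs of the epithelial list are among those that the paper reports as higher after METH in these libraries. The separation of the groups in this sum is therefore not a separate result on cell types. Oligodendrocyte miRNAs, 3 of 3, were at 2897 to 3191 CPM in the saline rats and 2334 to 4492 CPM in the METH rats. The 4 neuronal miRNAs dominated, at 276895 to 481070 and 312323 to 466119 CPM. None of the listed miRNAs in the table was at 0 throughout. Their part in the vascular values was not tested.

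The miRNAs whose level followed miR-126a-3p most closely over the 8 libraries, among 498 tested non-members, were miR-375-3p, miR-493-3p and miR-26b-5p. Pearson's r of log2 CPM was 0.951, 0.935 and 0.916, and Spearman's rho was 0.881, 0.976 and 0.452. Without METH rats 4 and 1, the libraries farthest from the median, r was 0.662, 0.732 and -0.227, and without METH rat 4 alone it was 0.794, 0.819 and 0.635. For miR-26b-5p the relation did not hold without both rats, whereas for miR-375-3p and miR-493-3p r was lower but stayed positive. These libraries share the TMM scaling, and the values are a description.

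The spread between rats was larger in the METH group than in the saline group for 9 of the 9 tested members, where this held for 75.9% of all tested miRNAs. With METH rat 4 left out it held for 5 of the 9 members and for 47.7% of all tested miRNAs, and turned for miR-145-3p, miR-221-3p, miR-221-5p and miR-222-3p. In percentage points, the largest difference over all 8 libraries was for miR-222-5p, which had 23 to 69 counts per rat. Its coefficient of variation was 16.1% in the saline group and 64.2% in the METH group, or 36.2% without METH rat 4. In proportion, the difference was larger for miR-126a-3p and miR-126a-5p. For miR-126a-3p the coefficient was 2.27% and 14.6%, or 9.40% in the METH group without METH rat 4. For miR-126a-5p it was 6.96% and 39.2%, or 22.1% in the METH group without METH rat 4. For miR-221-3p it was 9.98% and 21.5%, or 3.86% in the METH group without METH rat 4.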

How the data were processed

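A gel-cut small RNA fraction from the striatum of 8 rats was sequenced by a protocol with unique molecular identifiers. The deposited values are raw counts per mature miRNA. Per the labels, the authors trimmed reads with Cutadapt 1.18, aligned them to rn6 with STAR 2.7.0e and counted them with featureCounts of Subread 1.6.4. Merging of reads with the same identifier and the treatment of multiply aligned reads are not given in the sources used here, so copied reads may be counted more than once.

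Counts were filtered with filterByExpr (minimum count 10), scaled by TMM and tested in edgeR 4.0.16 (R 4.3.3, quasi-likelihood F-test), group being the only term. P-values were adjusted by Benjamini-Hochberg over the 507 miRNAs, with a threshold of 0.05. The SE is the absolute log2 fold change over the square root of F. Log2 CPM used a prior count of 2. Arm ratios (0.5 added to both counts) were tested with limma 3.58.1 over 174 precursors, and single values by exact permutation (two-sided) of the 70 assignments of rats to groups (smallest p 0.0286). The edgeR and limma tests were checked on simulated data with changes larger than those fitted for the members, so the check does not cover small changes. The permutation test was not checked in this way. Alternatives included DESeq2 1.42.0.

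The members, the lists and the tests were chosen with earlier results of these data known. The text names the 10 members and the 3 non-members most correlated with miR-126a-3p, besides listed vascular miRNAs. Sequences came from the RefSeq tables of GRCr8. Depth sets the precision of the rare strands, and counts cover counting error only.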

Additional observations from a re-analysis of the deposited data

Results flagged for a closer look

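Each set of 4 rats was searched for a rat standing away from its group, in the log2 CPM of the members, the arm ratios and the partner ratios. Of 34 groups, 2 were past Dixon's limit for the gap to the nearest rat as a share of the range, where about 1 in 20 groups passes by chance.

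In the saline group, the log2 ratio of miR-143-3p to miR-145-5p was 4.84 in saline rat 4, against 5.42 to 5.47 in the other 3 saline rats. miR-145-5p was highest in that rat among the saline rats. In the METH group, miR-221-3p was at 9.33 log2 CPM in METH rat 4, against 9.96 to 10.07 in the other 3 METH rats. The share of the range was 0.922 and 0.860.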

How the results depend on the processing

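No member passed an adjusted p of 0.05 under any scaling, filter, test or left-out library tried. Over all miRNAs, the count of calls was 0 with library totals, RLE factors and no low-count filter, but 8 with DESeq2 and 6 with the edgeR exact test, and it ranged from 0 to 5 with 1 library left out, the 5 without METH rat 1. Across all miRNAs the median fitted change (log2) was -0.12 with library totals, -0.02 with TMM. Of 54 member values in other settings, 47 kept their direction. Those that reversed were near 0: with library totals miR-126a-3p was -0.0075, miR-145-3p -0.057 and miR-221-5p -0.090; with RLE factors miR-145-5p was 0.012 and miR-221-3p 0.0056; with DESeq2 they were 0.011 and 0.0056. Values that kept their direction but fell by over 1.5 times with library totals were 0.26 for miR-143-3p, 0.18 for miR-222-3p and 0.075 for miR-222-5p. The causes were not tested.

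With 1 library left out, 62 of 72 member values kept their direction. Ranges that crossed 0 were -0.34 to 0.20 for miR-145-5p, -0.12 to 0.11 for miR-221-3p, -0.16 to 0.18 for miR-221-5p and -0.23 to 0.49 for miR-222-5p. Without METH rat 4, these were at the upper end for miR-145-5p and miR-221-3p and the lower end for miR-222-5p. miR-143-3p ranged from 0.32 to 0.46, and miR-126a-5p from -0.71 to -0.26. Arm ratio differences ranged from -0.88 to -0.32 for miR-126a, -0.47 to 0.15 for miR-145, -0.089 to 0.19 for miR-221 and -0.41 to 0.070 for miR-222. The partner ratio of miR-222-3p to miR-221-3p ranged from -0.032, without METH rat 4, to 0.56, and that of miR-143-3p to miR-145-5p from 0.15 to 0.84. The number of members whose groups did not overlap was 1 with each scaling. Leaving out METH rat 4 could not lower this number, and it was 1 there too. These overlap settings, the spread without METH rat 4 and the paired form of the partner ratios were chosen after seeing the data.

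The rat numbers used here run in library order, and the library labels of the saline and METH rats share no number. Rats given the same number here did not pair: after subtracting group means they correlated at -0.339, -0.155, -0.154 and -0.357. With the replicate block, 0 miRNAs and 0 precursors were called. miR-143-3p was at 0.38, miR-222-5p at 0.095, the miR-126a arm ratio at -0.70, and the partner ratios at 0.37 and 0.51.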
